A study of Mus musculus with 6 samples.

Results

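The cytosolic ribosomal protein genes of a mouse blood progenitor-like cell line were followed through 2 h of treatment with transforming growth factor β1 (TGF-β1). Members were all array probes whose RefSeq accession belongs to a gene with a symbol made of Rpl or Rps and a digit, leaving out the Rps6k kinases, Rps19bp1 (16 probes of 11 symbols in all) and symbols ending in -ps. This gave 113 of the 41174 probes on the array, for 79 genes: 41 probes of 31 genes of the small (40S) subunit and 72 probes of 48 genes of the large (60S) subunit, paralogs included. The rule used names alone and no measured value, but it was set with earlier results of these data known. All 113 probes were well above background on all 6 arrays, so every member was tested and none rests on a bound.

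The cells were Lhx2 cells, a line of haematopoietic progenitors that grows because the transcription factor Lhx2 is expressed in it by force. All samples shared the line and a medium with stem cell factor and interleukin 6, and all were kept overnight without serum, with albumin in its place. The 3 untreated samples were compared with 3 samples that had received 10 ng/ml of TGF-β1 over 2 h; RNA came from 3 separate harvests. Samples that carry 1 replicate number, 1 untreated and 1 treated, are called a pair, and the number is called the harvest. All arrays come from a single line dependent on enforced Lhx2, so the spread between samples is a spread between harvests of that line.

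Ribosomal proteins surround the ribosomal RNA of the small subunit, which reads the mRNA, and of the large subunit, which joins the amino acids. Their mRNAs are among the most abundant of a growing cell and begin with a run of pyrimidines, the terminal oligopyrimidine (TOP) motif, through which the mTOR kinase and the mRNA-binding protein Larp1 control their translation. Loss of a single copy of several of these genes gives Diamond-Blackfan anaemia, a failure of red cell production, so the family has a particular standing in blood progenitors. An array reads the amount of each mRNA and not its translation.

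The sequences around the start sites were searched for runs of C and T, a feature that the choice of members did not use. RefSeq promoter sequences (build GRCm38.p6) matched 60 of the 79 genes. The windows below hold 15 bases before and 15 bases after the annotated start, 5′ to 3′ on the strand of the gene, and capitals mark the unbroken run of C and T that holds the first transcribed base. The 6 genes with the longest such runs inside this window are shown: Rpl7a at chr2:26910792-26910821 (+ strand), Rpl35 at chr2:39005117-39005146 (- strand), Rpl15 at chr14:18270972-18271001 (- strand), Rpl14 at chr9:120571502-120571531 (+ strand), Rpl35a at chr16:33056467-33056496 (+ strand) and Rps10 at chr17:27635230-27635259 (- strand).
Rpl7a: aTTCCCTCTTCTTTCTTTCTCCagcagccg
Rpl35: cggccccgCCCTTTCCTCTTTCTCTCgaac
Rpl15: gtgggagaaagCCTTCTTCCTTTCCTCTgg
Rpl14: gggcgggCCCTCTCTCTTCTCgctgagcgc
Rpl35a: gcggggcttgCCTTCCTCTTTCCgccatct
Rps10: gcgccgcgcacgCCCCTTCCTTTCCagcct
The run was 21 bases long in Rpl7a, 18 in Rpl35, 17 in Rpl15, 14 in Rpl14 and 13 in both Rpl35a and Rps10. In all 6 genes these lengths include bases before the annotated start.

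A run of at least 8 C or T bases between 20 bases before and 50 bases after the start was present on the sense strand in 48 of the 60 member genes (80.0%), against 28.5% of the 27025 genes in the table. On the opposite strand, read as runs of A and G, the shares were 13.3% and 31.7%. The motif CCGGAAG, on either strand of the 300 bases around the start, was present in 24 of 60 members (40%) and in 9.93% of all genes, and TATAAA in 10.0% and 15.7%. These are matches of letters and not binding sites, and a C/T run counted here need not hold the first transcribed base. Members were split by the C/T run and by CCGGAAG to set their response beside these letters. The median log2 change was -0.04 both in the 48 genes with a C/T run and in the 12 without, and -0.04 and -0.03 in the genes with and without CCGGAAG. As 0 members were called in all (below), counts of calls cannot differ between these 4 sets.

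On the 6 arrays, 36351 probes were well above background on at least 3 arrays and were tested. Each level below is relative, on the log2 scale, to the array's 75th percentile of the background-corrected spot intensity. That percentile lay between 794.2 in untreated sample 3 and 1031 in treated sample 3, and 0 spots were saturated. The treatment was visible in genes that TGF-β is known to raise: Smad7, an inhibitory SMAD, rose by 3.56 on the log2 scale (SE 0.10, adjusted p = 0.00584), and the SMAD co-repressors Skil and Ski by 3.46 and 2.93. All 8 progenitor markers, Kit, Cd34 and Ptprc among them, were well above background on all arrays. Their summed intensity, in multiples of the 75th percentile, was 127 to 142 in untreated and 129 to 150 in treated samples. These sums hide opposite changes: Cd34, Gata2, Tal1 and Runx1 rose and Kit, Ptprc, Lmo2 and Myb fell, each in all 3 pairs. The changes ran from -0.67 in Lmo2 to 0.76 in Gata2. In the limma test used below 0 of the 8 were called, and 7 had an unadjusted p under 0.05, against 11.2% of all probes. Granulocyte markers were present as well: the sum of 6 ran from 383 to 508 in untreated and from 389 to 470 in treated samples. Sums of 3 erythroid markers ran from 0.191 to 0.239 and of 3 B cell markers from 0.397 to 0.594 over all 6 arrays. Sums of different lists rest on different probes and are not comparable with each other.

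No cytosolic ribosomal protein gene passed the test for a response to TGF-β1. Of the 113 probes 0 passed limma's test with the replicate number as a block (adjusted p under 0.05), where 0.622% of all probes tested were called (226 of 36351; 0.506% higher and 0.116% lower). At an unadjusted p under 0.05 the members again gave 0, against 11.2% of all probes. Low counts were not particular to the members. Of the 245 other probes with a mean level of at least 6, 0 were called and 1 had an unadjusted p under 0.05. The 76 mitochondrial ribosomal protein genes, by brightest probe, gave 0 on both counts. Without the block 0 members were called and 0 had an unadjusted p under 0.05, where all probes gave 0.239% and 5.84%. The median log2 change was -0.02 over the members and -0.01 over all probes tested, with 48 members above 0 and 65 below. It was -0.03 for the 41 probes of the 40S subunit and -0.01 for the 72 probes of the 60S subunit.

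The intervals say how large a change these arrays leave room for. The 95% confidence interval of the change stayed within 1.5-fold in either direction for 107 of 113 members, against 65.8% of all probes, and within 2-fold for all 113, against 92.0%. The other 6 probes belong to Rpl18, Rpl29 (2 probes), Rpl36a, Rpl7 and Rps18. The median half-width of the interval was 0.35 over the members and 0.33 over all probes, so the members' intervals were not narrower, and their changes lay closer to 0. Treated and untreated values did not overlap in 1 of 113 members, against 10.6% of all probes. All 3 pairs moved the same way in 11 of 113, 6 of them higher and 5 lower, against 34.8% of all probes (14.4% higher and 20.4% lower). Among the 245 other probes with a mean level of at least 6, the values did not overlap in 10, and all 3 pairs moved the same way in 43.

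**Figure D1:**
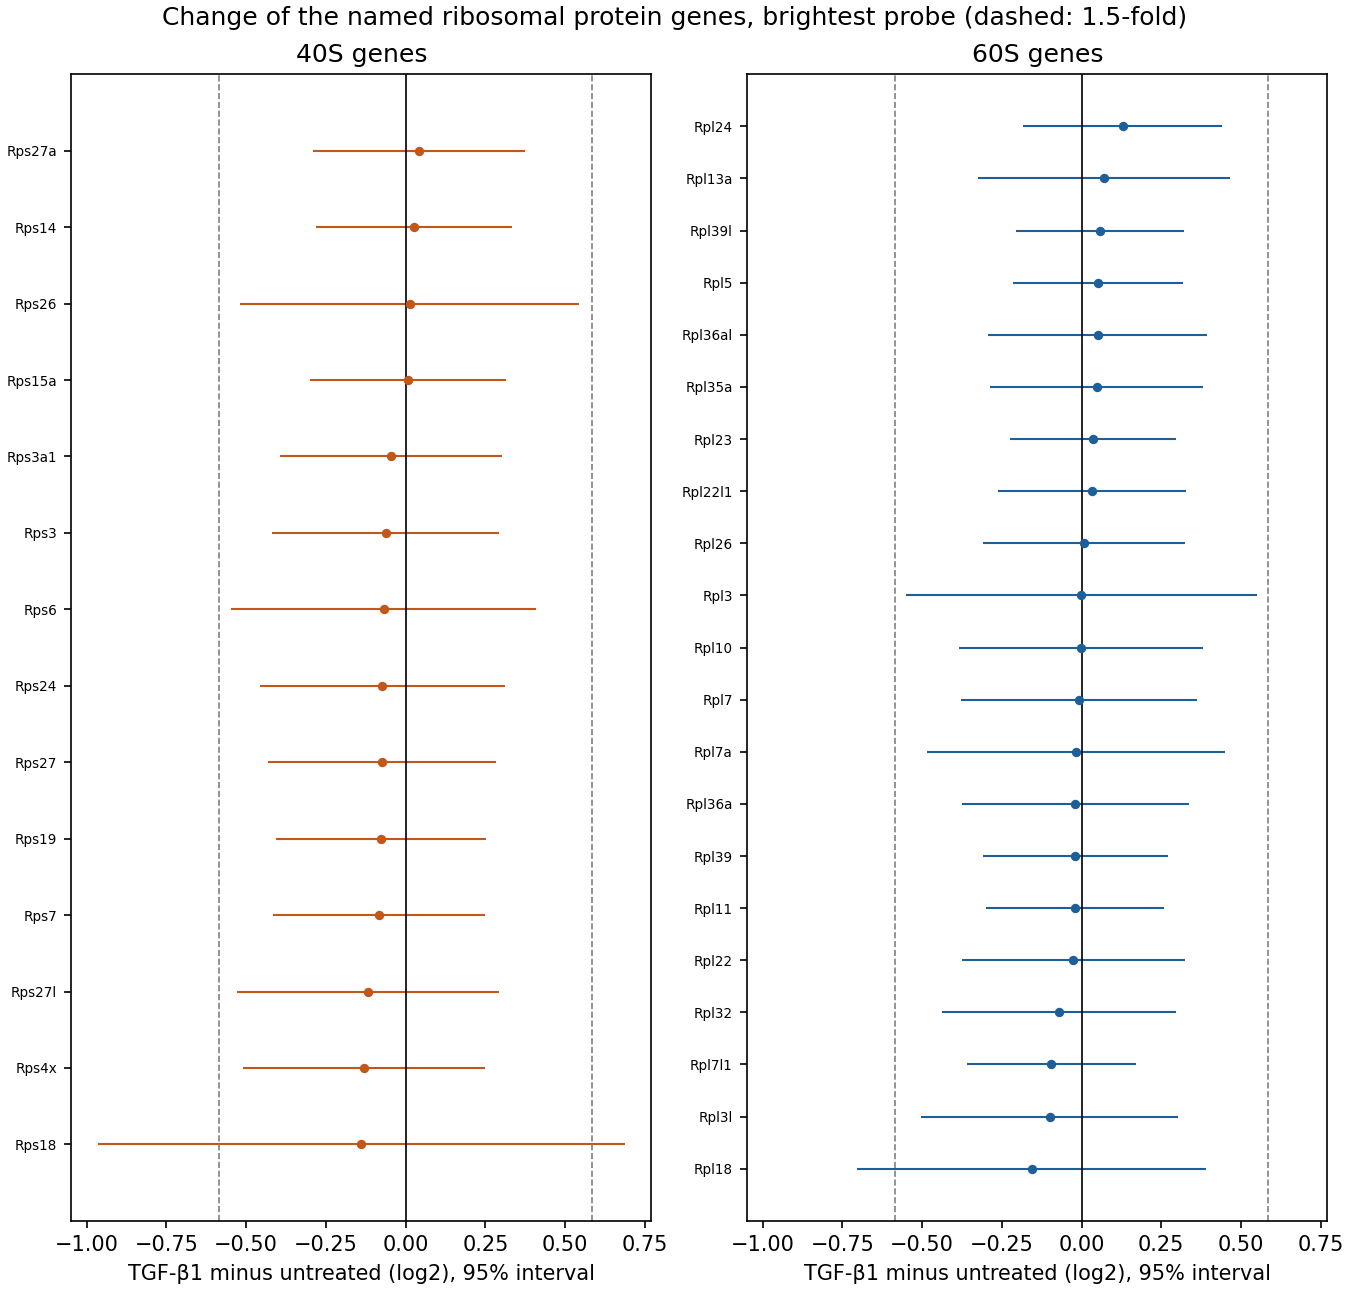
Log2 change with TGF-β1 (treated minus untreated, limma with the replicate number as a block) for the brightest probe of 14 small-subunit and 21 large-subunit genes that the naming rule covers; points are estimates, bars are 95% confidence intervals (3 pairs) and dashed lines mark 1.5-fold. All intervals shown cross 0, and of these only Rps18 and Rpl18 reach beyond a dashed line.

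In the small subunit, Rps6, the protein that the S6 kinases phosphorylate downstream of mTOR, had levels of 7.08, 7.00 and 7.27 in untreated and 7.22, 7.20 and 6.72 in treated samples of pairs 1, 2 and 3. The treated samples of pairs 1 and 2 were above their partners, that of pair 3 was the lowest of all 6, and the groups overlapped. The fitted change was -0.07 (SE 0.18, 95% confidence interval -0.55 to 0.41, adjusted p = 0.948). Rps14, whose loss underlies the anaemia of a form of myelodysplastic syndrome, had 8.03, 7.75 and 7.93 untreated and 8.05, 7.95 and 7.79 treated. Its groups overlapped too, and the change was 0.03 (SE 0.12, 95% confidence interval -0.28 to 0.33). Rps19, the gene mutated most often in Diamond-Blackfan anaemia, had 3.70, 3.64 and 3.61 untreated and 3.77, 3.66 and 3.29 treated, with the treated sample of pair 3 again the lowest (change -0.08, SE 0.13).

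Other genes of that anaemia lay in the same range: the change was -0.07 for Rps24, 0.01 for Rps26 and -0.08 for Rps7. Rps3, which lines the channel where mRNA enters and also acts in DNA repair, had -0.06 and 0.08 in its 2 probes. Rps4x, carried on the X chromosome, had -0.13 (SE 0.15, adjusted p = 0.844). Rps27a, made as a fusion with ubiquitin that is cut off after translation, had 0.04. Rps18, a protein of the small subunit's head, had the widest interval of any member. Its brighter probe read 7.61, 7.96 and 8.18 untreated and 8.16, 8.02 and 7.15 treated, a difference of 0.55, 0.06 and -1.02 in the 3 pairs, and the change was -0.14 (95% confidence interval -0.96 to 0.69). Its second probe read 7.64, 7.81 and 7.65 untreated and 7.73, 7.83 and 7.48 treated, with pair differences of 0.09, 0.02 and -0.17, so the spread of the first probe was not shared by the second.

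In the large subunit, Rpl5 and Rpl11, which together bind and restrain the p53 ligase Mdm2 when ribosome assembly fails, gave narrow intervals. Rpl5 read 7.86, 7.86 and 7.91 untreated and 7.83, 7.92 and 8.02 treated, with a change of 0.05 (SE 0.10, 95% confidence interval -0.22 to 0.32). Rpl11 read 6.88, 6.85 and 7.04 untreated and 6.94, 6.87 and 6.90 treated, with a change of -0.02 (SE 0.11, 95% confidence interval -0.30 to 0.26). In both genes the groups overlapped, and the intervals corresponded to folds of 0.861 to 1.25 and 0.813 to 1.20. Rpl23 and Rpl26, further binders of Mdm2, had changes of 0.04 (second probe -0.10) and 0.01.

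Rpl3, which reaches towards the peptidyl transferase centre, read 6.68, 7.66 and 7.14 untreated and 7.24, 7.32 and 6.92 treated. Its pairs differed by 0.57, -0.35 and -0.22, and it had one of the wider intervals (-0.55 to 0.55). Rpl10, which joins the large subunit late in its assembly, had a fold change of 0.998 (95% confidence interval 0.765 to 1.30). Rpl13a, which can leave the ribosome to silence inflammatory mRNAs, had a log2 change of 0.07, Rpl22, which is required in early T cell development, -0.03 (second probe 0.01), and Rpl32, often used as a reference gene, -0.07 (SE 0.14).

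The changes farthest from 0 were small and passed no test. The highest was that of the second probe of Rpl35a, another gene of Diamond-Blackfan anaemia, which read 4.40, 4.69 and 4.65 untreated and 4.71, 4.89 and 4.67 treated. Each treated sample was above its partner, the groups overlapped, and the change was 0.18 (SE 0.11, 95% confidence interval -0.12 to 0.48) with the lowest adjusted p of all members, 0.666. Its brighter probe gave 0.05.

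Rpl24 (0.13, second probe 0.00) and the third probe of Rpl7a (0.11, the others -0.02 and 0.05) came next. At the other end stood the third probe of Rpl7, which read 5.63, 5.91 and 5.67 untreated and 5.85, 5.69 and 5.10 treated. Only pair 1 was higher after treatment, and the change was -0.19 (SE 0.18, adjusted p = 0.809), against -0.01 and -0.03 in its other probes. The second probe of Rps15a (-0.16, brighter probe 0.01) and Rpl18 (-0.16) followed. That Rps15a probe was dim, with levels of -3.43 to -2.65 on the 6 arrays, against 6.75 to 7.14 for the brighter one.

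Several probes for a gene allowed a comparison within the family. Of the 79 genes 28 had more than 1 probe (62 probes). The changes of probes of the same gene lay a median of 0.12 apart and at most 0.23 (Rpl29), and in 14 of the 28 genes the probes differed in sign. Their intervals overlapped in all 28 genes, which could not be otherwise, as every member's interval held 0. The mouse genome holds many processed copies of ribosomal protein genes, and whether RNA of such copies added to a probe's signal was not tested.

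The members moved together within each pair, and pair 3 went against the other pairs. The treated sample was higher in 100 of 113 members in pair 1 (median 0.13, against -0.06 over all probes) and in 86 in pair 2 (0.07, against -0.07), where 38.6% and 35.9% of all probes were higher. In pair 3 only 14 of 113 were higher and 99 were lower, with a median of -0.28 against 0.10 over all probes, of which 59.3% were higher. By array, 52 members had their highest level in treated sample 1 (46.0%, against 11.6% of all probes) and 34 in untreated sample 3 (30.1%, against 15%), and 57 had their lowest level in treated sample 3 (50.4%, against 13.6%). The median level of the 113 probes was 6.68, 6.64 and 6.84 in untreated samples 1, 2 and 3 and 6.86, 6.68 and 6.55 in the treated ones. The 75th percentile itself was 901 untreated and 883 treated in pair 1, 1002 and 1006 in pair 2, and 794 and 1031 in pair 3. Directions in pair 3 thus depend on this scaling. Before it, Rpl11 rose there from 104580 to 123081 and Rps6 fell from 122176 to 108595, while the scaled level fell for both.

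**Figure D2:**
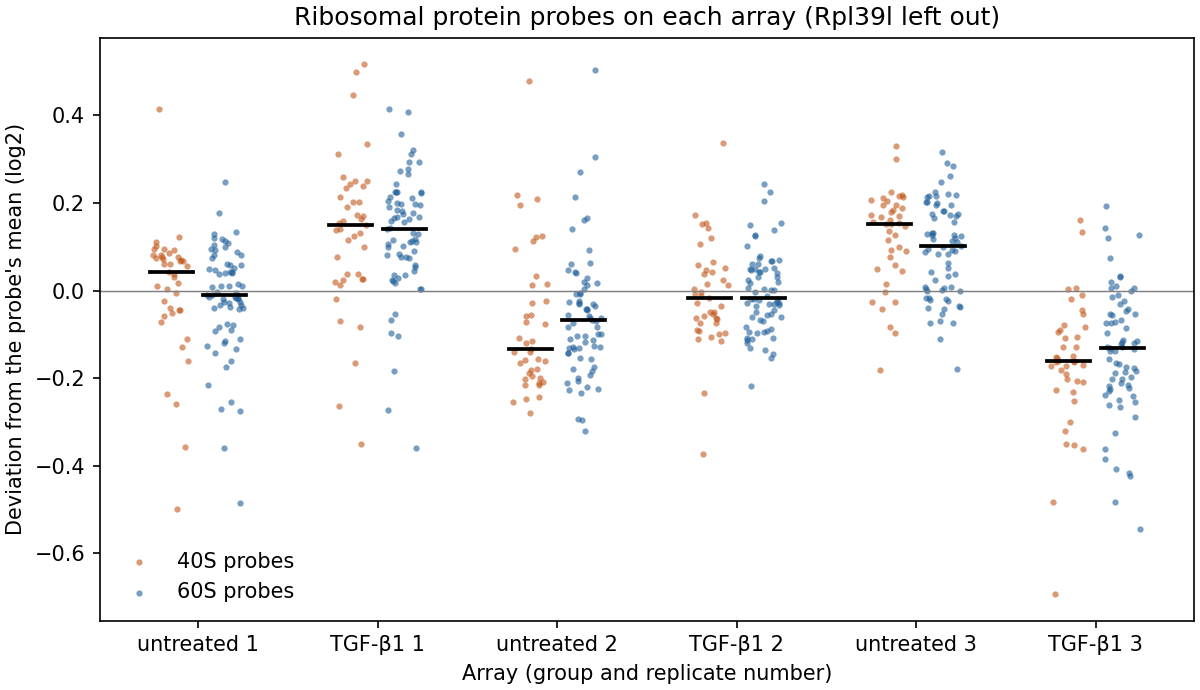
Deviation of each ribosomal protein probe from its own mean over the 6 arrays (log2; Rpl39l left out), by array and subunit; points are probes and black bars are medians. The medians of both subunits are highest in treated sample 1 and untreated sample 3 and lowest in treated sample 3 and untreated sample 2.

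Leaving out pair 3 therefore turned the sign of the median. On pairs 1 and 2 alone it was 0.09, with 103 of 113 members higher, against 36.3% of all probes, and 0 called. At an unadjusted p under 0.05 there were then 4 of 113 members, against 20% of all probes: Rps26 and the second, dimmer probes of Rps3 and Rpl35a higher (0.28, 0.28 and 0.26) and the second, dimmer probe of Rps15a lower (-0.24). The medians were -0.09 without pair 1 and -0.05 without pair 2. Pair 3 is the 1 pair whose samples lay on different slides, so the fit with the slide as a further term gives the value without pair 3 (0.09), and slide and pair cannot be told apart there. With a slide term and no replicate block the median was 0.04, within slide 1 it was 0.09 (2 untreated samples and 1 treated) and within slide 2 it was 0.01 (1 and 2).

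Other bright probes had shifts of the same signs, and the size of the shift depended on the scaling. The 75 members with a mean level of at least 6 had medians of 0.14, 0.08 and -0.32 in pairs 1, 2 and 3, and the 245 other probes as bright as these had 0.07, 0.06 and -0.17. With cyclic loess, which evens out differences between arrays that depend on brightness, the members' medians were 0.08, 0.00 and -0.05. With quantile normalization they were 0.06, 0.01 and -0.11, and in the authors' deposited log2 values 0.03, -0.00 and -0.06. Scaling on the median widened them to 0.19, 0.17 and -0.46. With the normexp background correction the members had 0.11, 0.07 and -0.01, and all probes had -0.02, -0.03 and -0.38. In pair 3 the members thus lay above all probes there, unlike with the 75th percentile scaling. The part of brightness, slide or RNA amount in the pair pattern was not tested beyond these values.

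**Figure D3:**
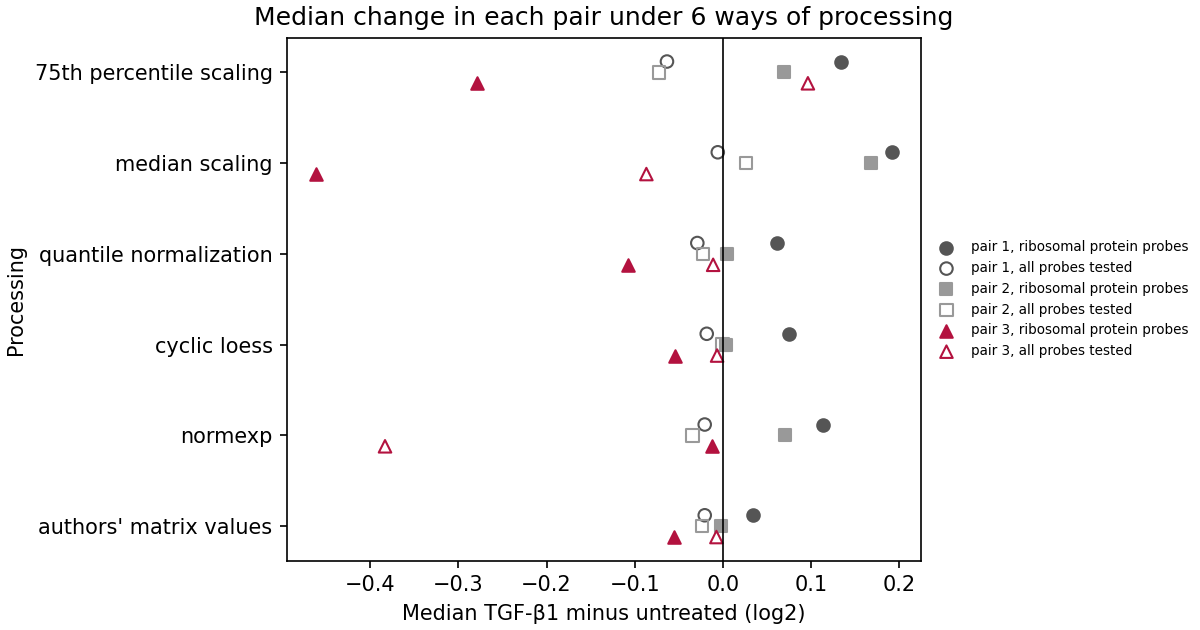
Median log2 difference between the treated and the untreated sample of each pair, for the 113 ribosomal protein probes (filled) and all probes tested (open), under 6 ways of processing. The 3 filled symbols lie farthest apart with median scaling (0.19, 0.17 and -0.46) and closer together with cyclic loess (0.08, 0.00 and -0.05).

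Between harvests most members lay close together. The 3 harvest means were within 1.5-fold of each other in 109 of 113 probes, against 76.2% of all probes, the other 4 being both probes of Rpl39l and 1 each of Rps3a1 and Rpl7a. They were more than 2-fold apart in 2, against 8.54%. The highest and lowest harvest means lay a median of 0.23 apart in the members and 0.37 over all probes. In the 245 other probes with a mean level of at least 6 that median was 0.22, and 0 of these were called for harvest. The moderated F-test of the harvest called 2 of 113 members, against 3.31% of all probes (1204 of 36351), and at an unadjusted p under 0.05 it gave 5 of 113, against 21.6%. The count depended on the setting: without pair 3, when harvests 1 and 2 alone are compared, it was 11 probes of 10 genes, against 29.4% of all probes, with array weights 5 (against 20.9%) and with normexp 7 (against 52.4%). Both probes called in the fit of all 6 arrays were those of Rpl39l, a paralog of Rpl39 that in mammals is known best from male germ cells.

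The brighter probe of Rpl39l read -0.12 untreated and -0.02 treated in harvest 1, 1.38 and 1.46 in harvest 2, and -3.92 and -3.92 in harvest 3. The second probe read -3.41 and -3.51 in harvest 1, -2.09 and -1.98 in harvest 2, and -5.68 and -5.54 in harvest 3. Both probes put the harvests in the same order, with harvest 2 the highest and harvest 3 the lowest, and within a harvest the untreated and treated samples lay close together. By the brighter probe harvest 1 was 14.4-fold and harvest 2 40.5-fold above harvest 3 (limma F-test, adjusted p = 0.000914), and by the second 4.43-fold and 11.9-fold (adjusted p = 0.00195).

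The difference was as large between samples of 1 slide: by the brighter probe untreated sample 1 was 13.9-fold above untreated sample 3 on slide 1, and treated sample 2 was 41.5-fold above treated sample 3 on slide 2. In background-corrected intensity the brighter probe read 831, 2612 and 52.5 in untreated samples 1, 2 and 3, and all of these were well above background. The second probe read 84.7, 234.5 and 15.5, so its value in harvest 3 lay near the dim end. The treatment changes of Rpl39l were 0.06 (SE 0.10, 95% confidence interval -0.21 to 0.32) and 0.05 (SE 0.11).

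Rpl39 itself, a short protein at the exit tunnel, did not share this. It read 6.82, 6.89 and 7.01 untreated and 6.93, 6.88 and 6.85 treated, its harvest means lay 0.05 apart (adjusted p = 0.936), and its treatment change was -0.02 (SE 0.11). The 250 bases before the start of both genes are printed because their levels differed so much in evenness, for Rpl39 at chrX:37085223-37085472 (- strand) and for Rpl39l at chr16:10169978-10170227 (+ strand), from RefSeq on GRCm38.p6, 5′ to 3′ on the strand of the gene, with each CG in capitals.
Rpl39: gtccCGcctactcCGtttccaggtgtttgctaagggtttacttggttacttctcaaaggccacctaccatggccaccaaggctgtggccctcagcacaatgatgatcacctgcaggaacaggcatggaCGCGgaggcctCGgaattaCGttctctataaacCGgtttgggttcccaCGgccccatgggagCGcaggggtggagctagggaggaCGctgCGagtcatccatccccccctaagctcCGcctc
Rpl39l: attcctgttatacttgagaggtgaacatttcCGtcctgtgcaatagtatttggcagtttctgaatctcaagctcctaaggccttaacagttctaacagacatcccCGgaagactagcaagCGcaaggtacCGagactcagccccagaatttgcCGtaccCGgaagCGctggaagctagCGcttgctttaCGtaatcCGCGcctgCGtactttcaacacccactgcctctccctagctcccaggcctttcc
Each holds 12 CG, where the median was 18 over the member genes and 6 over all genes of the table. CCGGAAG is found at 2 places on the sense strand for Rpl39l and at 0 for Rpl39.

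Most markers of mesenchymal cells, and the 2 mast cell markers with smaller ranges, followed the same order of harvests. Of 5 mesenchymal markers 4, Col1a1, Col1a2, Col3a1 and Dcn, had harvest 2 above 1 above 3 in their brightest probe and passed the F-test. Lum did neither, and it was dim, between -4.28 and -3.82 on the 6 arrays. That order was also found in 13.0% of all probes, in the mast cell markers Cpa3 and Mcpt8 (ranges 0.58 and 0.70) and in 1 of 3 T cell markers. The F-test called 0 of these mast cell and T cell markers. The third probe of Col1a1 (harvest 1 over 3 0.862-fold, adjusted p = 0.287) and the second of Col3a1 (0.838-fold, adjusted p = 0.349) had neither that order nor a call. Dcn, which encodes the matrix proteoglycan decorin, read 3.93, 5.45 and -0.95 untreated and 4.15, 5.30 and -0.79 treated in harvests 1, 2 and 3. The summed intensity of the list, in multiples of the 75th percentile, was 21.1, 64.7 and 1.35 in untreated and 24.3, 62.1 and 1.61 in treated samples. Markers of other cells also passed the F-test: 3 of 6 granulocyte markers (S100a8, S100a9 and Ltf), 1 of 3 macrophage markers (Csf1r), with both lists highest in harvest 3 by summed intensity, and 2 of 3 megakaryocyte markers (Pf4 and Itga2b), with that list lowest in harvest 3. None of these markers was called for treatment. The part of other cell types in the Rpl39l difference was not tested.

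**Figure D4:**
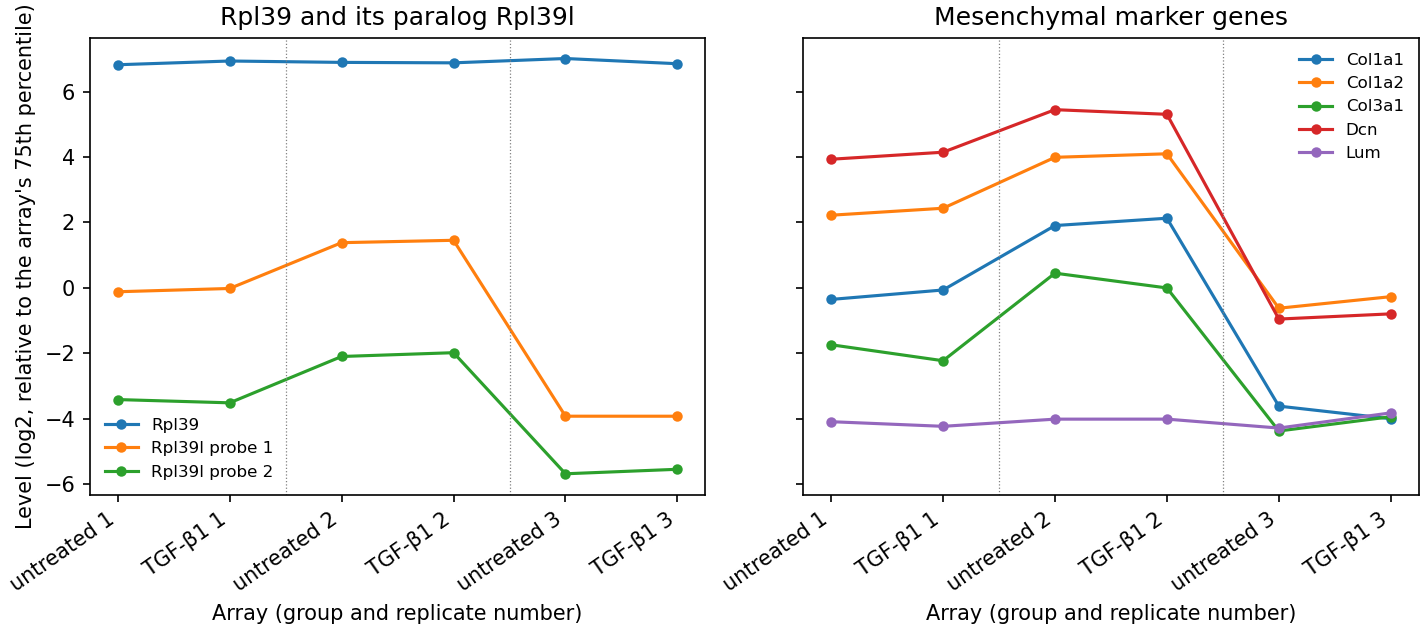
Level (log2 relative to the array's 75th percentile) of Rpl39 and both Rpl39l probes (left) and of 5 mesenchymal markers (right) on the 6 arrays, with dotted lines between harvests; heights of different probes are not comparable. Rpl39l, Col1a1, Col1a2, Col3a1 and Dcn are highest in harvest 2 and lowest in harvest 3. Rpl39 and the dim Lum (between -4.28 and -3.82) are nearly level.

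After Rpl39l the harvest ranges were much smaller. The second probe of Rps3a1, a small-subunit protein near the mRNA exit, read 5.21, 6.19 and 5.61 untreated and 5.36, 6.04 and 5.84 treated. Harvest 2 was the highest here too, but harvest 1 was the lowest, and the range of 0.83 did not pass (adjusted p = 0.121). Its brighter probe had a range of 0.23. The third probe of Rpl7a (range 0.59, adjusted p = 0.198) and the second, dim probe of Rps15a (0.55, adjusted p = 0.193) came next. The brightest probes of these genes had 0.19 and 0.22.

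**Figure D5:**
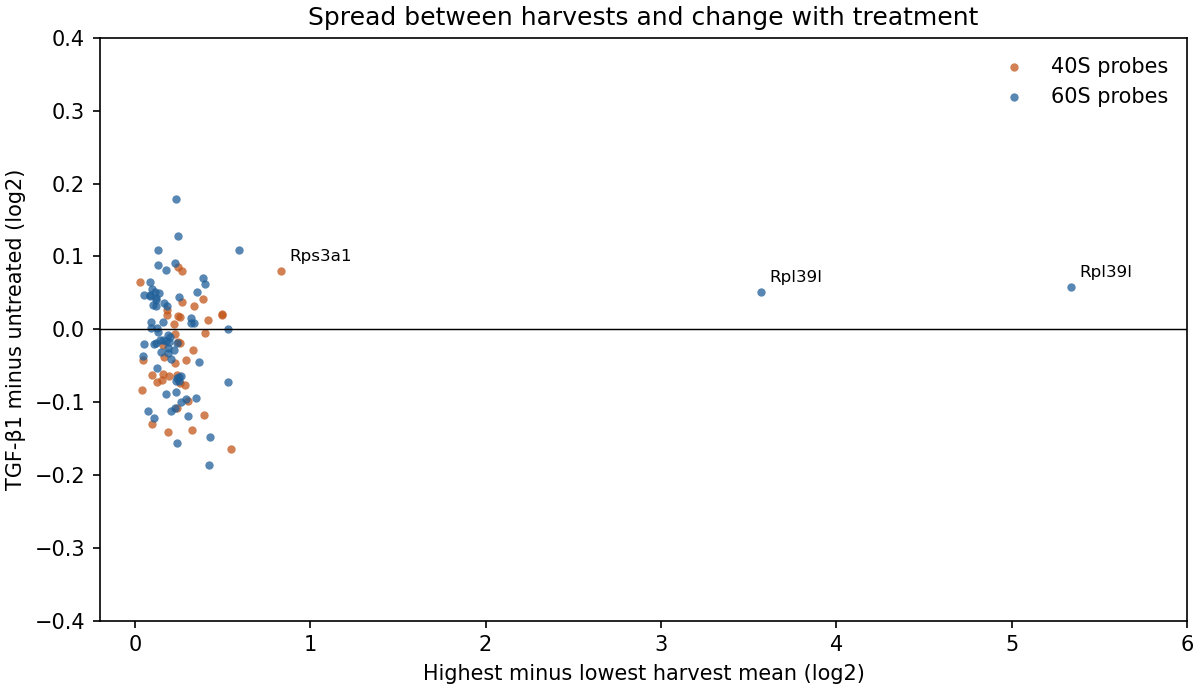
Highest minus lowest harvest mean (x, log2) against the change with TGF-β1 (y, log2) for the 113 ribosomal protein probes, coloured by subunit. The 2 Rpl39l probes stand at 5.34 and 3.57 on the x axis with changes of 0.06 and 0.05, and the other probes lie at 0.83 or less, with changes between -0.19 and 0.18.

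Ribosomal proteins with a near copy were set beside it, pair by pair. The change of the paralog minus that of the parent gene, by the brightest probe of each, was -0.10 ± 0.78 (SD, n = 3 pairs) for Rpl3l, the striated-muscle form of Rpl3, and -0.09 ± 0.26 for Rpl7l1. It was 0.06 ± 0.12 for Rpl22l1, 0.07 ± 0.02 for Rpl36al, 0.08 ± 0.09 for Rpl39l, and -0.04 ± 0.12 for Rps27l, a p53 target. In Rpl36al the difference from Rpl36a had the same sign in all 3 pairs (0.06, 0.06 and 0.09); none of these differences was tested, and the change of Rpl36al itself was 0.05 (adjusted p = 0.945). Apart from Rpl39l no paralog passed the harvest test, with adjusted p between 0.272 for Rpl7l1 and 0.784 for Rpl22l1.

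Other genes of translation gave 0 calls in this fit, each taken by its brightest probe. The 7 ribosomal proteins whose symbols fall outside the rule had a median change of -0.06, with Rplp0, of the stalk, at -0.01 and Rpsa at -0.19 (SE 0.21, adjusted p = 0.836). The 17 translation factors and other TOP mRNAs had a median of -0.02, with the elongation factors Eef1a1 at 0.01 and Eef2 at -0.11. All 7 dedicated chaperones of ribosomal proteins had values below 0 (median -0.21, 0 called), with Grwd1 and Heatr3, chosen after their values were seen, at -0.31 and -0.50 (adjusted p = 0.365 and 0.444). Values below 0 were also found in 8783 of 15641 genes with a symbol by brightest probe. The same held for 5658 of 8721 probes outside the family with a mean level of 0 to 4, where most of the 7 chaperones lay.

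Of 18 measured genes of the mTOR axis and its translation regulators, with a median of -0.05, Mtor had 0.08 and Eif4ebp1, the repressor of cap-dependent initiation, -0.14 (SE 0.11, adjusted p = 0.749). Ddit4, an inhibitor of mTOR complex 1 that was singled out after its values were seen, read 3.66, 4.65 and 3.76 untreated and 5.04, 5.54 and 4.82 treated. All treated values were above all untreated ones, with a change of 1.11 (SE 0.14) and an adjusted p of 0.068. Sesn2, a further inhibitor, had 0.68 (SE 0.10, adjusted p = 0.0942), and its paralog Sesn1 had -0.47 (SE 0.11, adjusted p = 0.232), with pair differences of -0.42, -0.36 and -0.64. These 3 were the genes of the list with an unadjusted p under 0.05. Ddit4 passed under 6 of the 15 alternative settings and Sesn2 under 2.

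The 76 mitochondrial ribosomal protein genes, which serve the organelle's own ribosome, were compared as the family most like this one. Their median change was -0.11 with 69 of 76 lower and 0 called, against -0.02 with 52 of 79 lower for the cytosolic genes by brightest probe. Without pair 3 the mitochondrial median was 0.01, so its sign rested on that pair, and the difference between the families was not tested.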

How the data were processed

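RNA of 3 untreated and 3 TGF-β1-treated Lhx2 samples was labelled with Cy3 and hybridised to 1-colour Agilent arrays, 1 per sample. Per the file headers, the deposited spot intensity was extracted with Feature Extraction 10.1.1.1 and is background-subtracted; it is not scaled between arrays. The authors' deposited series matrix holds log2 values that follow the log2 median spot signal of the same arrays (r at least 0.9995); how they were normalized is not stated here. The submitters' processing notes name limma, with no version given.

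Levels are log2 of the processed intensity minus the array's 75th percentile. Each member probe has a single spot; spots of other probes were averaged without outlier spots. Probes well above background on at least 3 arrays were tested, except 39 with a missing value on an array. Names came from RefSeq accessions in the reference table of GRCm38.p6 (23374 probes with and 17800 without a symbol); the array was designed on mm8, so no probe coordinates are given.

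The comparison of treated with untreated samples used lmFit and eBayes of limma 3.58.1 (R 4.3.3), with the replicate number as a block and Benjamini-Hochberg adjustment over all 36351 probes (threshold 0.05); harvests by the moderated F-test of the same fit. The script was tested on simulated data. Same-numbered samples deviated together (correlations of deviations 0.627, 0.795 and 0.577, against -0.749 to 0.0649 for other combinations); the labels give the numbers, and the series design names 3 independent harvests. With 6 arrays, their number limits the precision. Alternatives covered the block, scaling, background correction, filter, probe choice, slide, array weights and each pair left out. The normexp correction used the median spot signal.

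Named were the 3 highest and 3 lowest changes, the 5 probes of greatest harvest F, all paralog pairs and a fixed list of well-known members and translation genes; Rpl29, Grwd1, Heatr3, Ddit4, Sesn1, Sesn2, Rpl35, Rpl15, Rpl14 and Rps10 were added for a count, a value or a sequence. Members, lists and markers were chosen with earlier results of these data known. Rpl10l and Rps4l had no probe here. Some member genes are counted but not reported by name or value.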

Additional observations from a re-analysis of the deposited data

How the results depend on the processing

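The count of ribosomal protein probes called for treatment was 0 in all 15 alternatives, including the fit with no replicate block (0 of 113, with a median of -0.02). Their median stayed between -0.09 and 0.09, which is within the SD of the 3 pair medians (0.222), and its sign was not stable: 0.00 with quantile normalization, 0.02 with cyclic loess, 0.07 with array weights, -0.02 in the authors' values, and -0.09 to 0.09 with 1 pair left out. With normexp the members' median was 0.06 and that of all probes -0.17. Normexp with its fixed offset of 50 also called 0 of all probes and lost Smad7 (adjusted p = 0.183), Skil (0.0884) and Ski (0.0884); the cause was not tested.

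Calls among all probes varied with the setting: 226 with the block (0.622%) and 87 without (0.239%), 544 with median scaling (1.5%), 450 with quantile normalization (1.24%) and 419 with cyclic loess (1.15%). There were 880 in the authors' values (2.42%), 41 without a filter (0.0997%) and 453 with probes above background on all 6 arrays (1.35%). Block and slide gave 81 (0.223%), slide alone 64 (0.176%), array weights 1501 (4.13%), and leaving out 1 pair 30 to 81 (0.0825% to 0.223%). Shares this low leave room for few calls among 113 probes, so the steady 0 does not show that members are more stable. The arrays of pair 3 had a weight of 0.264, against 1.46 and 2.60.

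Harvest differences were called for 2 of 113 member probes (3.31% of all probes), for 3 with quantile normalization (4.87%) and in the authors' values (6.27%), for 7 with normexp (52.4%), for 5 with array weights (20.9%), for 1 of 79 with 1 probe per gene (3.11%), for 2 to 11 with 1 pair left out, and for 2 in the other alternatives that tested harvests. The 11 came without pair 3, where harvests 1 and 2 alone were compared and 10701 of all probes (29.4%) were called. Rpl39l was among the called genes in every alternative that tested harvests. In the other translation lists 0 genes were called, 1 with median scaling, quantile normalization, cyclic loess or the stricter filter, and 2 in the authors' values or with array weights (Ddit4, then Sesn2). Of 690 values for 46 named genes under the 15 alternatives, 525 kept their direction and side of the threshold, 3 lost the call (those above) and 162 turned sign while past no threshold.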
